A study of Mus musculus with 5 samples.

Results

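Gamma-secretase is a protease that cuts proteins inside the cell membrane, and the transcripts of 6 of its subunit genes were followed in mouse forelimb buds: Ncstn, Psen2, Psenen, Aph1a, Aph1b and Aph1c. The members were all probe sets whose gene symbol in the platform annotation was among those 6, which gave 11 of the 45037 probe sets tested, 10 with a single symbol and 1 shared by Aph1b and Aph1c. Aph1c had no probe set of its own in the annotation used here. The group was chosen by the genotype difference of Ncstn in these same arrays, so the differences of all members are given as a description, with standard errors or 95% intervals as their error. Counts of member calls are printed beside the share over all probe sets and support nothing.

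Presenilin, encoded by genes such as Psen2, carries the catalytic aspartates of the complex. Nicastrin, the product of Ncstn, is a large glycoprotein that screens substrates at the cell surface, APH-1 proteins form the scaffold on which the complex is assembled, and PEN-2, the product of Psenen, joins last and triggers the cleavage of presenilin that makes the enzyme active. In embryos the complex is best known for releasing the intracellular domain of Notch receptors after a ligand has bound. In the limb bud, Notch signals act in the apical ectodermal ridge and in vessels. In rodents the Aph1b gene was duplicated, which gave Aph1c.

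The series held 5 arrays of total RNA from forelimbs at E11.5, all on the C57Bl/6 background. The 2 double mutant arrays came from embryos of genotype Sost-/-; Sostdc1-/-, which lack sclerostin and its paralog, both secreted antagonists of Wnt signalling, and the 3 other arrays came from wild-type embryos. The labels describe the samples as biological replicates from embryos that were not pooled, and do not say how either null allele was made. The whole limb was lysed, so mesenchyme, ectoderm, vessels, blood and muscle precursors were measured together.

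Some features of the arrays bear on every value below. Sost differed by −2.17 and −0.73 on its 2 probe sets and Sostdc1 by −2.35 and 0.05 on its 2, on the log2 scale as double mutant minus wild type, and which probes lie in a deleted part is not known here. The poly-A spike-in Dap, a bacterial RNA added before labelling, stood at a log2 level of 6.90 and 7.28 in the double mutant arrays and at 3.23 to 3.36 in wild type. The 3' minus 5' difference was 0.16 to 0.27 in double mutants against −0.14 to −0.06 in wild type for Gapdh, and overlapped between groups for Actb (0.56 to 0.65 against 0.20 to 0.68). The Y-linked gene Eif2s3y was at 3.20 in wild type replicate 1 and at 8.36 to 8.49 in the other 4 arrays, while Xist was at 11.75 to 12.37 in wild type replicate 1 and both double mutant arrays, so that both double mutant arrays held Xist and Y-linked signal. The genotypes therefore cannot be told apart from the way the 2 sets of RNA were prepared. Over all probe sets, 18.2% were called at an adjusted p under 0.05, 8.7% higher and 9.52% lower in double mutants, and the groups did not overlap in 45.2%. With limma 0 probe sets were called without double mutant replicate 1 or without wild type replicate 2, where 14059 and 11115 had an unadjusted p under 0.05, so every call named below was lost in both of those fits. All levels below are log2 of the deposited intensity. Each genotype difference was taken on 1 probe set, unless a mean or sum over probe sets is named. Words such as brightest or dimmer rank probe sets by mean signal only.

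Nicastrin and APH-1b transcripts held the largest differences within the complex, in opposite directions. On its brighter probe set Ncstn was 5.05-fold lower in double mutants, and on its 2 own probe sets Aph1b was 4.20-fold and 2.64-fold higher. Psenen and Aph1a stayed within 1.29-fold of wild type on every probe set, and Psen2 within 1.35-fold. Of the 11 probe sets, 4 were called higher and 1 lower, beside 8.7% higher and 9.52% lower over all probe sets. All 5 calls were lost without either double mutant replicate 1 or wild type replicate 2. The groups did not overlap on 9 of the 11, with double mutants above wild type on 8 and below on 1. Over all probe sets, double mutants lay above in 22.1% and below in 23%. Among probe sets above the median level, where 10 of the 11 members lay, the groups did not overlap in 60.7%. Since the genes were grouped with this contrast known, nothing is read from these counts. In whole limbs, fewer cells of a type and less RNA per cell cannot be told apart.

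**Figure D1:**
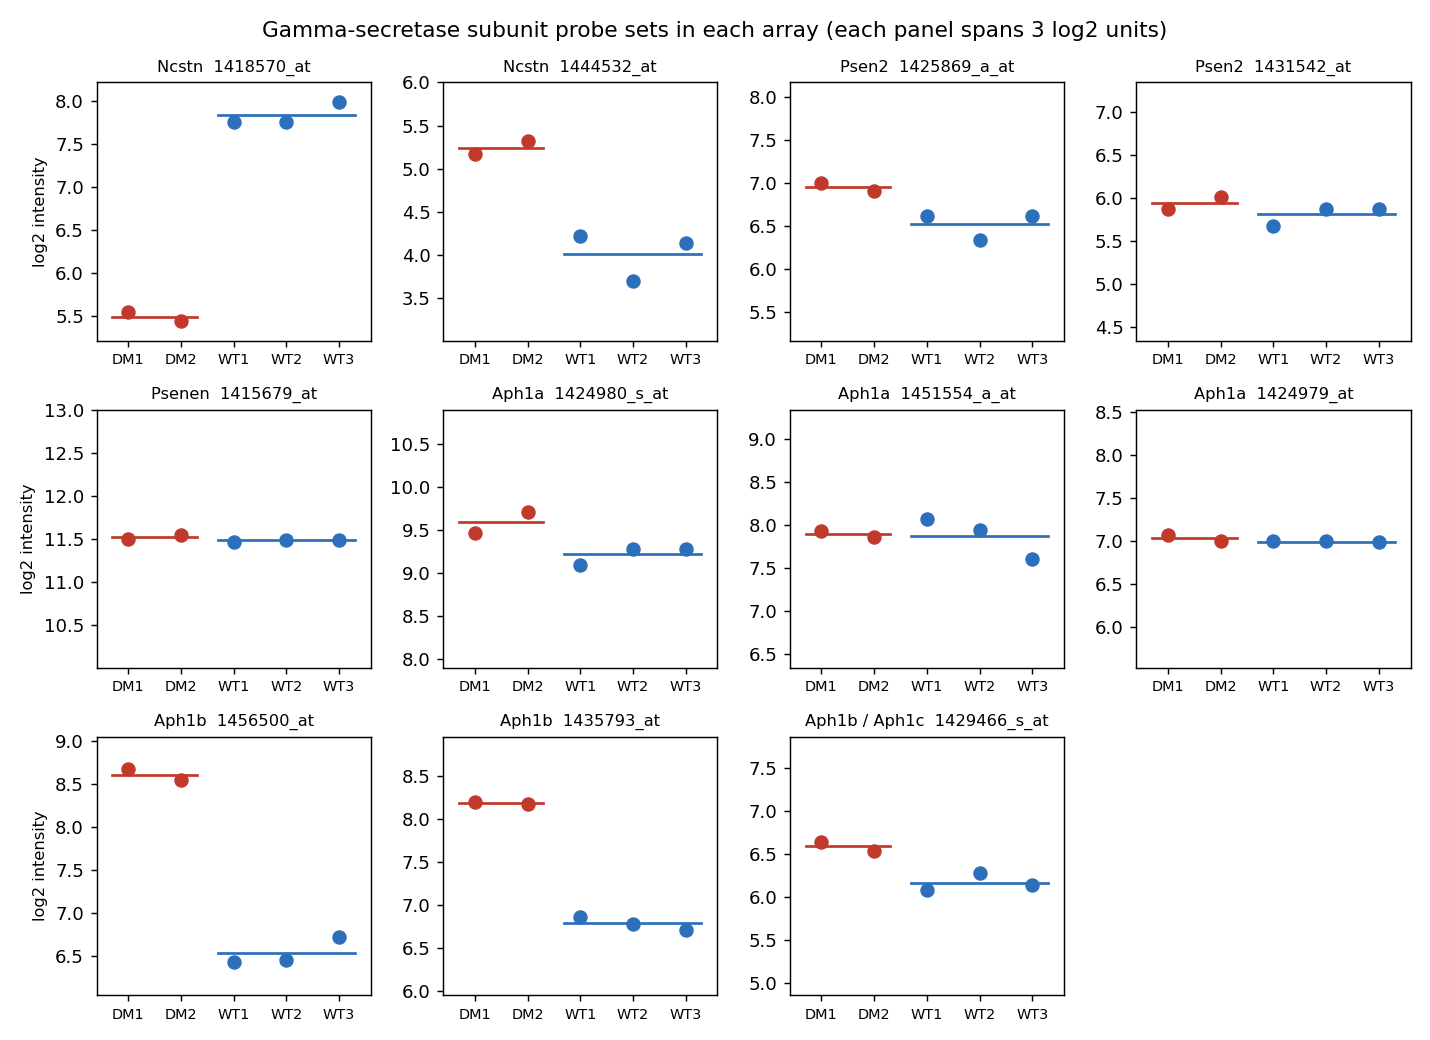
Log2 intensity (vertical axis) of each of the 11 probe sets in the 5 arrays, double mutant replicates 1 and 2 (DM, red) and wild type replicates 1 to 3 (WT, blue), with the mean of each group as a line. Ncstn on 1418570_at lies near 5.49 in the mutants and 7.83 in wild type, Aph1b on 1456500_at near 8.60 and 6.53, and Psenen near 11.52 and 11.48.

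Ncstn, on chromosome 1, was measured by 2 probe sets that disagreed. On 1418570_at the log2 level was 5.54 and 5.44 in double mutant replicates 1 and 2, and 7.75, 7.75 and 7.99 in wild type replicates 1 to 3. Every double mutant array was low and every wild type array high, with a gap of 2.20 between the groups against ranges of 0.10 within the mutants and 0.24 within wild type. The means were 5.49 ± 0.07 (SD, n = 2) and 7.83 ± 0.14 (SD, n = 3), a difference of −2.34 ± 0.10 (SE), and 1.68% of all probe sets differed by at least as much in either direction. The deposited values of wild type replicates 1 and 2 were identical on this probe set, so its wild type spread rests on fewer distinct values than arrays. Leaving out 1 array at a time gave −2.39 to −2.26.

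The second Ncstn probe set, 1444532_at, went the other way. Its levels were 5.17 and 5.31 in the mutants and 4.21, 3.69 and 4.13 in wild type, differing by 1.23 ± 0.19 (SE). Here too the groups did not overlap, with double mutants above wild type by a gap of 0.96. This probe set was dim: 37.2% of all probe sets had a lower mean level, against 64.5% for 1418570_at, and it was the only member under the overall median of 5.41. With 16 intensity units added before log2, which damps dim values, the difference was 0.74 for this probe set and −1.995 for the brighter one. The mean of both Ncstn probe sets differed by −0.55 ± 0.11 (SE), a much smaller value than that of the brighter one alone. Which transcripts of Ncstn each probe set reports was not tested.

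Other genes with a pair of probe sets are given beside this disagreement as a description. Among 4695 genes with exactly 2 probe sets, both were called in 222, in the same direction for 152 and in opposite directions for 70. The opposite calls made up 1.49% of the 4695 and 31.5% of the 222. Ncstn was among those 70, and among the 23 in which the brighter probe set was the lower one. The 2 differences of Ncstn lay 3.57 apart, and 13 of the 4695 genes, 0.277%, had a spread at least that large, Ncstn included. The group was chosen by the Ncstn difference, which is part of this spread, so nothing is read from that share. The median spread over these genes was 0.29.

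The 250 bases before the annotated start of Ncstn are shown because this gene held the largest difference of the complex and RefSeq gives it a single start there (RefSeq, GRCm38.p6, chr1:172082750-172082999, minus strand). Capitals mark the ETS-type sequence CCGGAAG, or CTTCCGG on the other strand.
Ncstn: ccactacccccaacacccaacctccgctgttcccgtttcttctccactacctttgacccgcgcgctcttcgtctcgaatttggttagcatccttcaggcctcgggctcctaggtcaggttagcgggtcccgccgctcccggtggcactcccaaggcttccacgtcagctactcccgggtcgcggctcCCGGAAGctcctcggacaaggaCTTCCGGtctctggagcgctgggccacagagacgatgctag
The window held that sequence 2 times, and 6.91% of 32851 promoter windows of this length held it at least 1 time. The first windows of Psenen and Aph1a held it 1 time each, so it was not particular to Ncstn among the subunit genes. The Ncstn window held 0 matches to the GC box GGGCGG, the CCAAT box CCAAT, the TATA box TATAAA and TGGGAA, the core of the sequence bound by RBPJ, the DNA-binding partner of cleaved Notch. Each motif was searched on both strands, and matches to different motifs were counted independently. A match describes letters in the window and shows no binding.

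Aph1b, on chromosome 9, was higher in double mutants on both of its own probe sets. On 1456500_at the levels were 8.67 and 8.54 in the mutants and 6.43, 6.46 and 6.72 in wild type. The groups were separated by a gap of 1.82, with ranges of 0.13 and 0.29 inside them, and the means of 8.60 ± 0.09 (SD, n = 2) and 6.53 ± 0.16 (SD, n = 3) differed by 2.07 ± 0.12 (SE). On 1435793_at the levels were 8.20 and 8.17 in the mutants and 6.86, 6.78 and 6.72 in wild type, differing by 1.40 ± 0.06 (SE). Again both double mutant arrays lay above all 3 wild type arrays, by a gap of 1.31. Differences of this size or larger in either direction were seen in 2.61% of all probe sets for 1456500_at and in 6.57% for 1435793_at. Both probe sets had mean levels above the median of all probe sets, and no value was repeated between arrays on either. Leaving out 1 array at a time gave 2.01 to 2.16 and 1.36 to 1.44.

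The probe set shared by Aph1b and Aph1c, 1429466_s_at, showed a smaller difference. Its levels were 6.64 and 6.54 in the mutants and 6.08, 6.28 and 6.14 in wild type, differing by 0.42 ± 0.08 (SE), or 1.34-fold. The groups did not overlap, with a gap of 0.26. Since its signal can come from either gene, no level of Aph1c alone was obtained. RefSeq lists Aph1c among the synonyms of Aph1b and Aph1b among those of Aph1c, so the names of the pair can be exchanged between annotations.

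Aph1b and Aph1c lie next to each other in the RefSeq gene order, with no protein-coding gene between them. Their upstream sequences are shown because the arrays separate the pair only in part (RefSeq, GRCm38.p6, chr9:66795424-66795673 for Aph1b and chr9:66834707-66834956 for Aph1c, both minus strand). Capitals mark the GC box GGGCGG, here as CCGCCC on the other strand.
Aph1b: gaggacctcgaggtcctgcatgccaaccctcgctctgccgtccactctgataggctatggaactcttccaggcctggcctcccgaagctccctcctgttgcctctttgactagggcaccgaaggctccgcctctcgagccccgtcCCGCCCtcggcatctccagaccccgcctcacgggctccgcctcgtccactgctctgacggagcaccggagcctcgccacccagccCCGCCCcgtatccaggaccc
Aph1c: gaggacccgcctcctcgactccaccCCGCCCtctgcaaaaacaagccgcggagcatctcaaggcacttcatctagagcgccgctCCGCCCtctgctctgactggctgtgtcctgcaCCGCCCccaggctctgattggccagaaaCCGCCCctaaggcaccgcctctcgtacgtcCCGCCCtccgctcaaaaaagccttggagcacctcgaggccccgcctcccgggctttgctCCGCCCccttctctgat
The Aph1b window held 2 GC boxes and the Aph1c window 6, and 32.7% of all windows held at least 1. Aligned end to end, the windows were identical in 57.2% of alignment columns, against 45.9% to 53.4% for the other pairs of subunit genes with the first window of each. GC content was 68% and 65.6%. Neither window held CCGGAAG or TGGGAA, and the Aph1c window held CCAAT 1 time.

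Aph1a, on chromosome 3, encodes the APH-1 scaffold paralog, and its 3 probe sets showed small differences or none beyond their spread. On the brightest, 1424980_s_at, levels were 9.47 and 9.71 in the mutants and 9.10, 9.29 and 9.29 in wild type, differing by 0.37 ± 0.11 (SE). The double mutant arrays were the higher ones, by a gap of 0.19 that is smaller than their own range of 0.23. On 1451554_a_at levels were 7.92 and 7.86 in the mutants and 8.07, 7.94 and 7.61 in wild type, so the groups overlapped, and the 95% interval of the difference ran from −0.40 to 0.44. On 1424979_at all 5 arrays lay between 6.99 and 7.07, with an interval from −0.09 to 0.17. Under equal array medians the difference on 1424979_at was −0.05, so its sign depends on the scaling.

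The presenilin gene measured, Psen2, lies on chromosome 1 and had 2 probe sets. On 1425869_a_at levels were 7.002 and 6.91 in the mutants and 6.61, 6.34 and 6.61 in wild type. The double mutant arrays were above the wild type arrays by a gap of 0.29, and the difference was 0.43 ± 0.11 (SE), or 1.35-fold. Leaving out 1 array at a time gave 0.34 to 0.48. On 1431542_at levels were 5.87 and 6.01 in the mutants and 5.68, 5.87 and 5.88 in wild type, so the groups overlapped, with a difference of 0.13 ± 0.09 (SE) and a 95% interval from −0.12 to 0.38.

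Psenen, on chromosome 7, encodes PEN-2 and was steady across the arrays. Its single probe set, 1415679_at, read 11.499 and 11.54 in the mutants and 11.46, 11.49 and 11.49 in wild type. The groups did not overlap, but the gap was 0.01 and the difference 0.04 ± 0.04 (SE), with a 95% interval from −0.08 to 0.16, and it was −0.05 under equal array medians. Of all probe sets, 97% were dimmer. Over the 11 probe sets the wild type range was between 0.0083 on 1424979_at and 0.52 on the dim Ncstn probe set, so the size of a difference that could be seen varied widely between members.

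**Figure D2:**
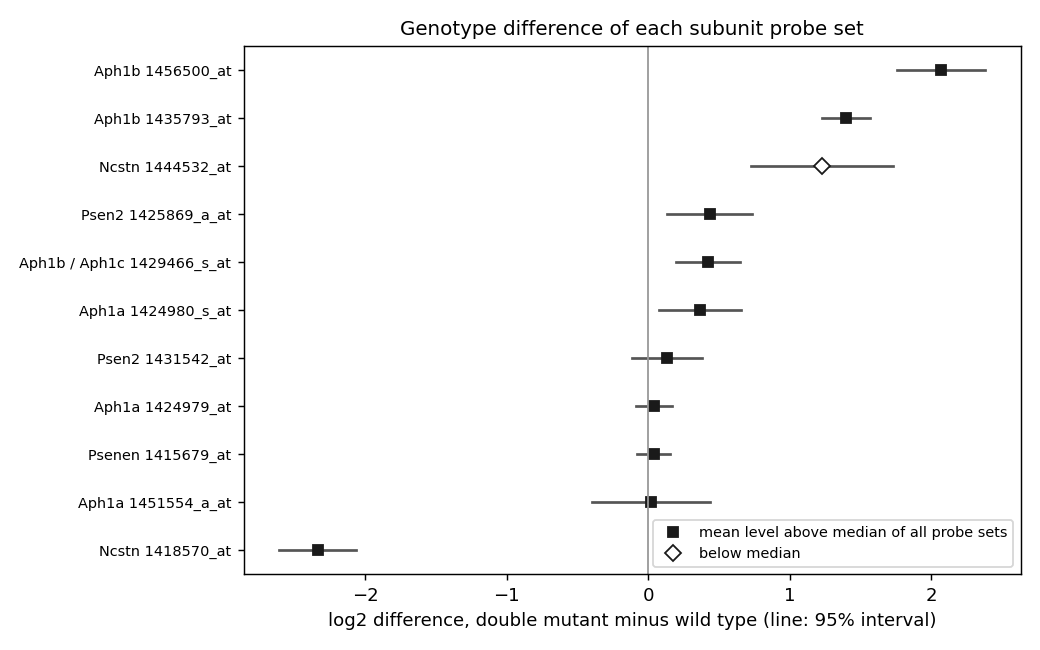
Log2 difference (double mutant minus wild type, horizontal axis) of each of the 11 probe sets, ordered by its value, with the 95% interval of limma as a line. The values run from −2.34 for Ncstn on 1418570_at to 2.07 for Aph1b on 1456500_at, and the open diamond marks the probe set dimmer than the overall median.

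The differences of the Ncstn, Aph1b and shared probe sets under other settings are given as a description, since the contrast chose the group. Over the 12 alternatives tried, Ncstn on 1418570_at lay between −2.43 and −1.995 and Aph1b on 1456500_at between 1.90 and 2.16. Aph1b on 1435793_at lay between 1.28 and 1.47 and the shared probe set between 0.33 and 0.48. The dim Ncstn probe set, with 11 alternatives, lay between 0.74 and 1.33. These alternatives are not separate checks. The variance trend and the level filter leave a difference unchanged, and the replicate block gave the same differences as leaving out wild type replicate 3. Eif2s3y was low only in wild type replicate 1, so that covariate acted much like leaving out that array (−2.373 and −2.376 for Ncstn on 1418570_at).

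**Figure D3:**
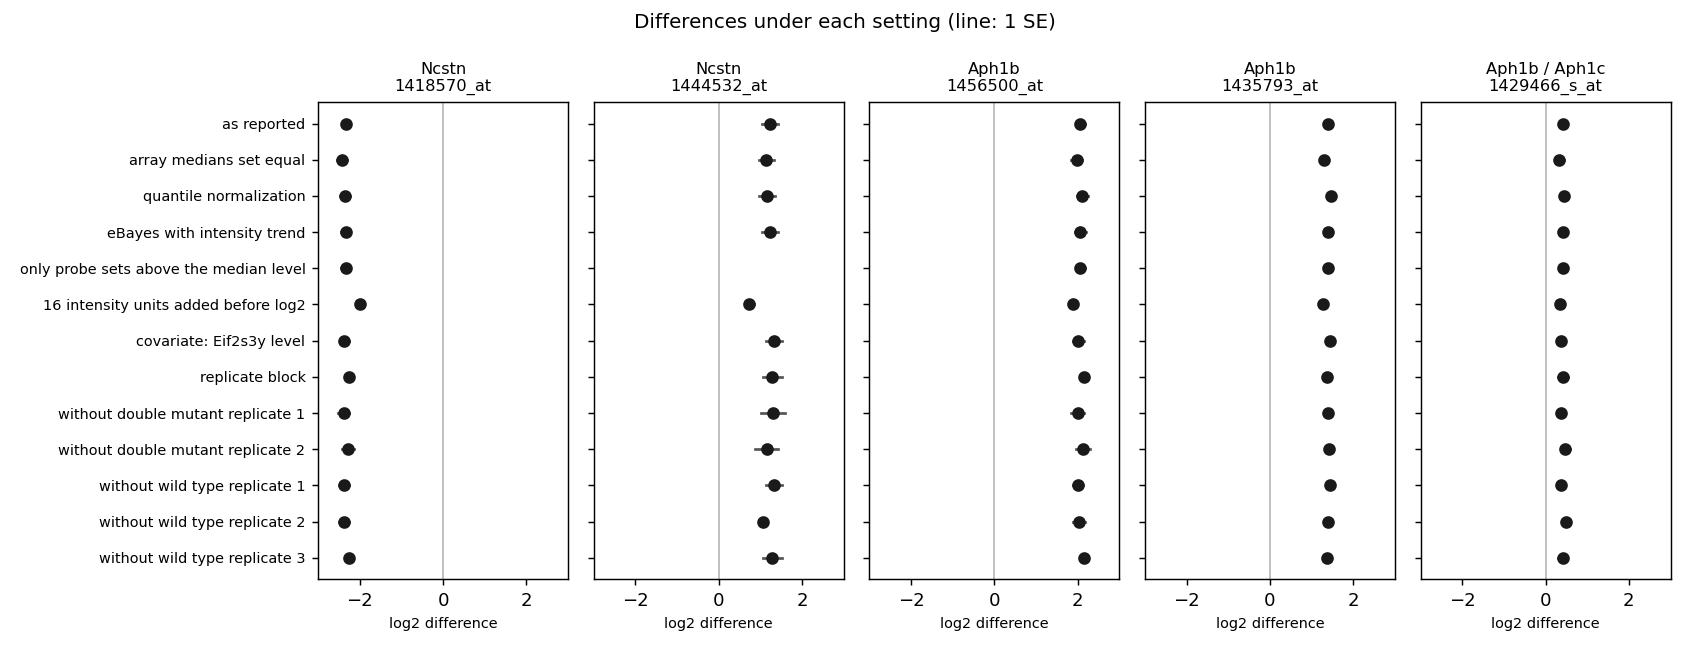
Log2 difference (horizontal axis) of the Ncstn, Aph1b and shared probe sets as reported and under each alternative setting (rows), with 1 SE as a line. Ncstn on 1418570_at stays between −2.43 and −1.995 and Aph1b on 1456500_at between 1.90 and 2.16.

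Genes around the complex were followed on the brightest probe set of each gene, in 6 lists that cover related proteases, assembly, sheddases, substrates and Notch partners. Of 61 such genes measured, 5 rose, 8 fell and 48 did not pass, 21.3% called, against 14.7% of all 18193 genes on the same basis (6.56% higher and 8.14% lower). The median difference was −0.03 over the 61 genes and −0.02 over all genes. Under equal array medians 2 rose and 11 fell, and with the mean of all probe sets of a gene 3 rose and 24 fell. With the Eif2s3y level as a covariate 0 rose and 3 fell, and with 1 array left out 0 to 3 rose and 0 to 4 fell, the 0 on both sides coming without double mutant replicate 1 or wild type replicate 2. Of the 13 called genes, Bsg and Dlk1 kept their call under 9 of 12 alternative settings, and the other 11 under 4 to 6 of the 11 or 12 that could be run. On the dimmer probe sets of the listed genes most calls were lower. Substrates had 12 such calls lower and 2 higher, and each other list had 2 to 7 lower and 0 higher. The share called over all dimmer probe sets was not computed.

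Proteases of the signal peptide peptidase family share the catalytic motif of presenilin, and 1 of 3 measured members passed. Sppl2a, which cuts membrane proteins in lysosomes and endosomes, rose by 0.34 ± 0.06 (SE, adjusted p = 0.0309), and the call held under 5 of 12 alternative settings. The list's median difference was 0.19. Among 6 genes for assembly and trafficking of the complex 1 fell and 0 rose, with a median of −0.02. Bsg, which encodes the membrane glycoprotein basigin, fell by 1.28 ± 0.09 (SE, adjusted p = 0.00708), with means of 11.94 ± 0.05 (SD, n = 3) in wild type and 10.67 ± 0.17 (SD, n = 2) in mutants. Rer1, a retrieval receptor of the early secretory pathway that binds unassembled subunits, stood at a difference of 0.13 ± 0.08 (adjusted p = 0.335).

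Sheddases cut the outer part of a substrate before gamma-secretase can act, and of 8 genes in that list, which includes inhibitors, 2 fell and 0 rose, with a median of 0.02. Reck, a membrane-anchored inhibitor of metalloproteases, fell by 0.55 ± 0.07 (SE, adjusted p = 0.0165). Bace2, an aspartyl protease, fell by 0.67 ± 0.13 (adjusted p = 0.0395) at dim levels of 4.12 and 4.79. The main sheddase of Notch, Adam10, stood at 10.63 ± 0.0031 in the mutants and 10.62 ± 0.06 in wild type (adjusted p = 0.939) on this probe set, while 2 other Adam10 probe sets were called lower.

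Of 24 substrate genes measured, 1 rose and 2 fell on the brightest probe set, with a median of −0.08. Cdh1, which encodes E-cadherin of epithelial cells, rose by 1.05 ± 0.21 (SE, adjusted p = 0.0399). App, the amyloid precursor gene, fell by 0.33 ± 0.05 (adjusted p = 0.0261) and its relative Aplp2 by 0.47 ± 0.10 (adjusted p = 0.0443). None of the 4 Notch receptor genes passed with limma. Notch1 stood at 9.80 ± 0.20 in the mutants and 9.22 ± 0.14 in wild type, so it differed by 0.58 ± 0.13 (adjusted p = 0.0531), and Notch3 at 9.32 ± 0.12 and 8.81 ± 0.16, a difference of 0.50 ± 0.12 (adjusted p = 0.0569). Both lay above wild type in every double mutant array, and both were called under 3 of 12 alternative settings. Notch4, the receptor of vessels, differed by 0.26 ± 0.07 (adjusted p = 0.0859) and Notch2 by −0.50 ± 0.29 (adjusted p = 0.32), with overlapping arrays for Notch2. At an unadjusted p under 0.05 with limma, Notch1, Notch3 and Notch4 passed, with p of 0.01, 0.0113 and 0.0213. Of all 45037 probe sets, 14510 had such a p, so nothing is read from these 3.

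Among 13 Notch ligands and modifiers, 2 rose and 2 fell, with a median of 0.04. Dlk1, which encodes a non-canonical ligand of the Notch family, fell by 1.80 ± 0.11 (SE, adjusted p = 0.00641), from 11.17 ± 0.13 to 9.37 ± 0.15. Dll4, the ligand of sprouting vessels, fell by 0.86 ± 0.14 (adjusted p = 0.0251). Numb, an adaptor that antagonises Notch, rose by 0.44 ± 0.06 (adjusted p = 0.0194), and Pofut1, which fucosylates Notch receptors, by 0.46 ± 0.09 (adjusted p = 0.039), and Pofut1 is named to complete the count after its value was seen. Numb and Pofut1 each had 1 other probe set called lower.

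Of 9 nuclear partners and targets of Notch, 1 rose and 1 fell, with a median of −0.02. Hey1, a direct target, rose by 0.43 ± 0.09 (SE, adjusted p = 0.0461), a call held under 4 of 12 alternative settings. Maml2, a co-activator, fell by 0.54 ± 0.11 (adjusted p = 0.0429) at dim levels of 3.13 and 3.68. Hes1, the most widely used target, stood at 9.49 ± 0.20 in the mutants and 9.51 ± 0.02 in wild type (adjusted p = 0.913). On their brightest probe sets Rbpj differed by −0.03 ± 0.11 (adjusted p = 0.871) and Nrarp by 0.28 ± 0.11 (adjusted p = 0.157). Of their dimmer probe sets, 2 of Rbpj and 1 of Nrarp were called lower.

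**Figure D4:**
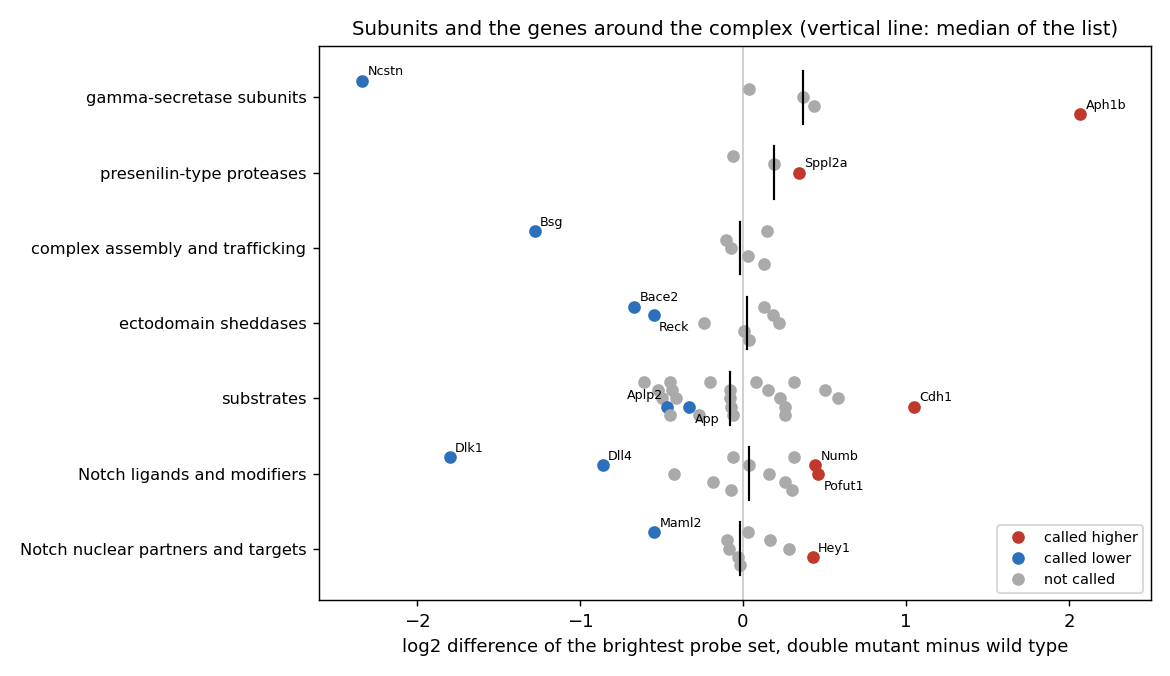
Log2 difference of the brightest probe set of each gene (horizontal axis, double mutant minus wild type) for 5 subunit genes and for the 6 lists, with called genes coloured and named and the median of each list as a vertical line. The subunit genes reach from −2.34 (Ncstn) to 2.07 (Aph1b), while list members reach from −1.80 (Dlk1) to 1.05 (Cdh1).

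Cell type markers moved beside these genes. Limb mesenchyme markers, among them Prrx1 and Tbx5, had 0 of 6 called with limma, 1 of the 6 reached an unadjusted p under 0.05, and 3 dimmer probe sets of these genes were called lower (2 of Prrx1 and 1 of Tbx15). Their summed intensity was 12248 to 12592 in the mutants and 11857 to 12108 in wild type. Of 6 surface ectoderm markers, which share Cdh1 with the substrate list, 4 rose (Epcam, Esrp1, Trp63 and Cdh1), while Krt5 stood at −0.38 ± 0.14 (SE, adjusted p = 0.157) with both mutant arrays below wild type and of the other Trp63 probe sets 1 was called higher and 1 lower. The summed intensity of the 6 was 4733 to 5017 in the mutants and 3146 to 3651 in wild type. Of 5 endothelial markers 2 fell, Pecam1 (−1.98 ± 0.13, SE, adjusted p = 0.00663) and Emcn (−0.52 ± 0.09, adjusted p = 0.029). Cdh5 (−0.06), Kdr (−0.03) and Tek (−0.06) were not called, and their arrays overlapped. The endothelial sums were 1048 to 1096 in the mutants and 1452 to 1534 in wild type. Of 4 erythroid markers Alas2 and Hba-x fell, while Hbb-bh1 (−0.02) and Epor (−0.31) were not called and overlapped. The erythroid sums were 24183 to 27737 in the mutants and 29390 to 32375 in wild type. Of 4 muscle progenitor markers Myod1 fell (662 to 703 and 909 to 1058), while Pax3 stood at 0.79 ± 0.30 (SE, adjusted p = 0.16) with both mutant arrays above wild type. Of 5 macrophage markers 0 were called and 1 had an unadjusted p under 0.05 (535 to 734 and 812 to 895), and of 2 neural crest markers measured 0 were called and 0 had such a p (597 to 818 and 622 to 766). Every measured marker had a mean level over the 5 arrays above the median of all probe sets, which is not a detection limit. The part of these cell types in the differences of Ncstn, Aph1b and the listed genes was not tested.

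The profile most like that of each member was sought among 11166 genes above the median level, as the smallest root-mean-square difference of centred log2 values over the 5 arrays. For Ncstn these were Anxa6 (0.10), Nog (0.12) and Sdr39u1 (0.18), and for Aph1b Cfp (0.20), Rpl12 (0.20) and Dancr (0.21). Within 0.1 log2 units lay 1 gene for Ncstn and 0 for Aph1b, against 220 for Psen2, 547 for Aph1a and 3333 for Psenen. Few probe sets differed as much as those of Ncstn and Aph1b, so these counts follow the size of the difference and nothing is read from them. The nearest to Psen2 were Dvl1, Rexo4 and Rhov (0.02 to 0.04), to Aph1a Ppp1cb, Ptpn13 and Cwf19l2 (0.01 to 0.03), and to Psenen Slc7a6, Dph2 and Magel2 (0.0044 to 0.0063). With 5 arrays in 2 groups, genes with a like genotype difference have like profiles.

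Genes next to the subunit genes were measured too, an addition made after the members' values were seen. Among 27 measured genes within 3 protein-coding genes on either side, 3 were called higher (Vangl2, Ahctf1 and Rps27l) and 4 lower (Dcaf8, Parp1, Lin37 and Usp3), 25.9%, beside 14.7% of all genes on the brightest probe set, and the difference between these shares was not tested. The genes directly beside Ncstn, Nhlh1 and Copa, differed by −0.10 ± 0.10 and −0.11 ± 0.07 (SE) and were not called. Beside the Aph1b and Aph1c pair, Car12 differed by −0.46 ± 0.14 and Rab8b by 0.23 ± 0.05, neither called.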

How the data were processed

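Total RNA of 5 forelimb samples was labelled with biotin by a 2-cycle kit and hybridised to Affymetrix arrays, per the labels' protocols. The deposited values were linear intensities, 1 per probe set and array, with array medians of 39.4 to 44.4. Setting these medians equal moved the median difference over all probe sets from −0.01 to −0.10 and the calls from 8206 to 9625. RMA and limma are named, without version or order, in the submitters' processing notes. Other settings are not given in the sources used here. Of all tested probe sets, 48.5% repeated a value in at least 2 arrays, and 6 of the 11 members did. No detection calls were used.

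Intensities were log2 transformed without further normalization. After 64 control probe sets were left out, limma 3.58.1 (R 4.3.3) fitted 1 mean per genotype with no covariate (3 residual and 1.29 prior degrees of freedom), and two-sided p-values were Benjamini-Hochberg adjusted over 45037 probe sets. A gene was represented by its brightest probe set among 34945 with 1 symbol (932 had several, 9160 none). Errors are SD over arrays or limma's SE, and the number of arrays limits precision. Members and lists were chosen with earlier results of these data known. Named were all member probe sets, the Notch receptors, up to 3 called genes per list with the smallest p, and 3 nearest profiles per member, leaving out provisional symbols. Rer1, Adam10, Hes1, Rbpj and Nrarp, none called on the brightest probe set, were named outside this rule. So were Pofut1, the cell type markers and the neighbouring genes. Promoter windows came from RefSeq (GRCm38.p6) for all 6 members. The fit was tested on simulated data, with 50 of 45037 probe sets changed at each fold. It recovered 10% of 1.5-fold, 52% of 2-fold, 68% of 4-fold and 94% of 8-fold changes. A gene that was not called may therefore still differ. The share changed was far below the 18.2% called here, so these recoveries need not hold for these data. Alternatives were other normalizations, a variance trend, a level filter, an offset, a sex-linked covariate, a replicate block, left-out arrays and probe set averaging.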

Additional observations from a re-analysis of the deposited data

Results flagged for a closer look

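The poly-A spike-in control Dap, which lies outside the comparison of mouse transcripts, gave a mean log2 level of 7.09 ± 0.27 (SD, n = 2) in double mutant arrays against 3.30 ± 0.06 (SD, n = 3) in wild type, a signal above that of the control group. The 3' minus 5' difference of Gapdh, a measure of RNA integrity and labelling, was 0.21 ± 0.08 and −0.10 ± 0.04 in the same groups. That of Actb was 0.60 ± 0.07 and 0.37 ± 0.27, with overlapping arrays. Groups of 2 and 3 arrays were not tested for single arrays that stand apart.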

How the results depend on the processing

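Over all probe sets 8206 were called, 3339 with the Eif2s3y covariate, 2351 with the replicate block and 0 to 5108 with 1 array left out. Of the subunit probe sets 4 were called higher, 2 with the Eif2s3y covariate, 2 with the replicate block and 0 to 2 with 1 array left out, and 1 was called lower, 0 to 1 with 1 array left out. Of the listed genes 5 rose, 2 under equal array medians, 0 with the Eif2s3y covariate, 0 with the replicate block, 3 by the mean of all probe sets and 0 to 3 with 1 array left out, and 8 fell, 3 with the covariate, 0 with the block, 24 by the mean of all probe sets and 0 to 4 with 1 array left out. Over all probe sets the count of 0 with limma came without double mutant replicate 1 or wild type replicate 2, where 14059 and 11115 had an unadjusted p under 0.05, and listed genes that rose were also 0 without wild type replicate 1; the cause was not tested. In the fit that leaves 1 double mutant array, that array is assumed to vary like the wild type. The replicate numbers share only a number: deviations of same-numbered arrays correlated at 0.09 and 0.12 across probe sets, and the block fit used the 4 arrays of replicates 1 and 2. Of the members, the second Ncstn probe set alone lay under the overall median level. The calls of subunit probe sets stand beside 8.7% called higher and 9.52% called lower over all probe sets.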
